A study of Mus musculus with 6 samples.

Results

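The genes described here are the carriers, ligands and receptors of fibroblast growth factor (FGF) signalling in mouse aortic endothelial cells, which form the inner lining of the vessel. They were chosen by name: the 2 secreted FGF carriers Fgfbp1 and Fgfbp3, the ligand Fgf2, the intracellular relatives Fgf11 and Fgf13, the 4 kinase receptors Fgfr1 to Fgfr4, and the receptor-like gene Fgfrl1. All 10 were among the 17067 genes of the deposited table, and 6 of them were above the count filter that kept 12277 genes for testing. The genes were picked with the difference between the infusion groups already known, above all that of Fgfbp1, so their own differences are given as a description without a p-value.

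The cells came from wild-type (WT) C57BL/6 mice of 8 weeks that carried an osmotic pump under the skin for 14 days. In 3 samples the pump had delivered angiotensin II (AngII), the hormone that constricts vessels and raises blood pressure, at 1000 ng/kg/min, and in 3 samples it had delivered saline. Pieces of aorta of 2 mm from both groups were then kept on Matrigel, and the cells that grew out from days 5 to 7 were the ones measured. The medium of both groups held 20% fetal calf serum, 10 ng/mL of an endothelial growth factor and 25 U/mL heparin, a polysaccharide that itself binds FGFs. The labels do not say that the 3 samples of a group came from separate mice or cultures. The p-values therefore reflect only how far these 6 samples spread, and that spread may be technical.

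FGFs are secreted signals that act through receptor tyrosine kinases at the cell surface and need heparan sulfate, a sugar chain of the matrix and the cell surface, to form a stable complex with the receptor. The same sugar chains hold FGFs in the matrix, and the FGF-binding proteins are secreted carriers that bind FGFs and release them from that store. Inside the cell the receptors signal through the adaptor FRS2 to RAS and the kinase ERK, which in turn induces its own inhibitors. In endothelial cells FGF signalling is known for its part in growth, vessel integrity and angiogenesis.

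The libraries held 22646065 to 25141992 counts in the AngII samples and 21154724 to 23004780 in the saline samples, so that 1 CPM (a count scaled to a fixed library size) stood for 21.2 to 25.0 counts. Endothelial markers were high in both groups (Pecam1 averaged 1919 CPM in AngII and 1846 CPM in saline samples), while the smooth muscle markers Acta2 and Tagln, the fibroblast markers Col1a1, Col1a2, Dcn and Lum and the leukocyte marker Ptprc each had at most 8 counts in every sample. Other genes of those lists were detected: Smtn averaged 109 CPM with AngII and 87.5 CPM with saline, Cd68 270 and 271 CPM, and Notch3, Pdgfrb, Col3a1, Pdgfra and Pi16 were each between 2.29 and 8.97 CPM. In the comparison of AngII with saline, 57.6% of the 12277 tested genes had an adjusted p under 0.05 by edgeR's quasi-likelihood test, 29.0% higher and 28.6% lower. This background was wide, with a median absolute log2 fold change of 0.19, so a call alone says little about a gene here.

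Both carriers were far lower in cells from AngII-infused mice, while the receptors that could be tested were at about the same level. Fgfbp1 (chromosome 5, 43978858 to 43981779, minus strand, GRCm38) encodes a heparin-binding protein best known from epithelia and tumours, where it mobilises FGF2. Fgfbp1 had 53, 47 and 78 counts in AngII replicates 1 to 3, against 530, 552 and 572 counts in saline replicates 1 to 3. Scaled to library size by the trimmed mean of M-values (TMM), its level was 2.23, 2.09 and 3.12 CPM in the AngII samples and 24.9, 25.0 and 24.8 CPM in the saline samples. The saline samples were nearly identical, AngII replicate 3 was the highest of its group, and the gap between the groups was several times the spread within either. The means were 2.48 ± 0.560 CPM with AngII and 24.9 ± 0.123 CPM with saline (SD, n = 3 each), a 9.97-fold lower level (log2 fold change -3.32 ± 0.10, SE). Only 25 of the 12277 tested genes had a lower log2 fold change. In bulk RNA, fewer cells that express a gene and less of its RNA per cell cannot be told apart.

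Fgfbp3 (chromosome 19, 36917550 to 36919615, minus strand), the second carrier, which also binds FGFs and heparin, was lower in the same samples. It had 181, 136 and 154 counts in AngII replicates 1 to 3, against 443, 459 and 464 counts in saline replicates 1 to 3. In CPM these were 7.60, 6.05 and 6.16 with AngII and 20.8, 20.8 and 20.1 with saline, so that the highest AngII sample was well below the lowest saline sample. The means were 6.60 ± 0.865 CPM with AngII and 20.6 ± 0.417 CPM with saline (SD, n = 3 each), 3.11-fold lower (log2 fold change -1.64 ± 0.08, SE). The sample that was highest among the AngII replicates differed between the carriers, replicate 1 for Fgfbp3 and replicate 3 for Fgfbp1. Of the 6 members above the filter, these 2 had an adjusted p under 0.05 in edgeR and 0 were called higher, against 57.6% of all tested genes called in either direction. Both were at least 2-fold lower, as were 2.60% of all tested genes, while 3.93% differed by at least 2-fold in either direction. Since the members were picked with this comparison known, nothing is read from these counts.

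**Figure D1:**
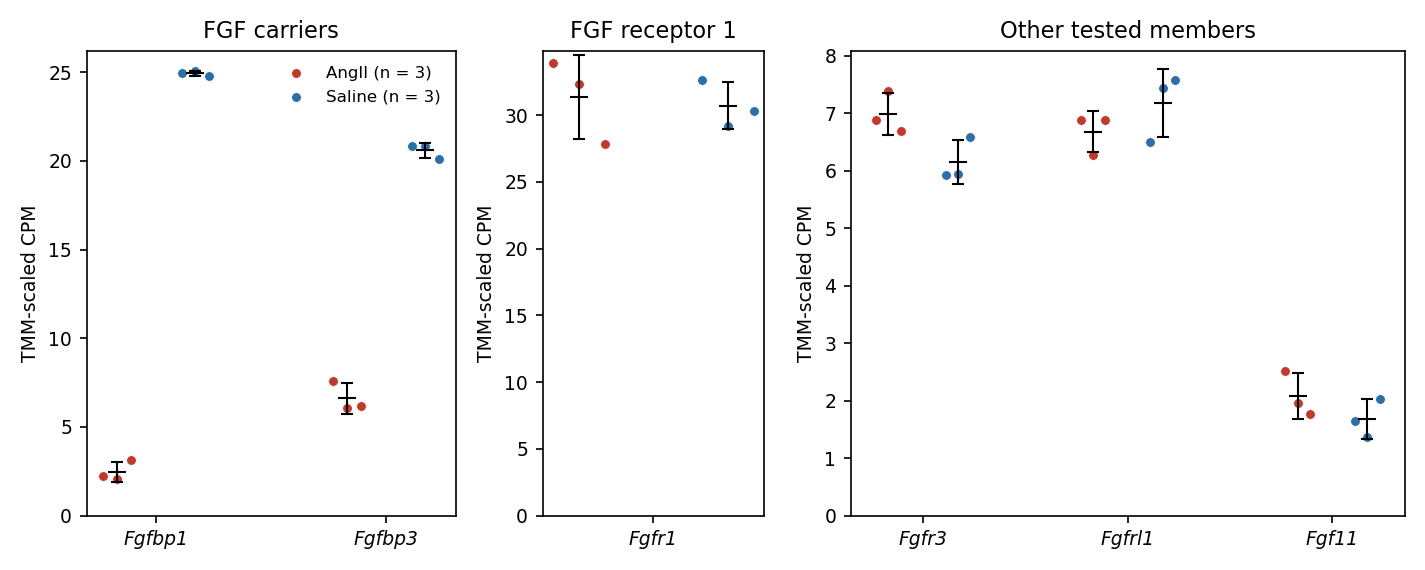
TMM-scaled CPM of the 6 members above the count filter, with a point for each of the 3 AngII and 3 saline samples and a bar for the mean ± SD. Fgfbp1 averaged 2.48 CPM with AngII and 24.9 CPM with saline and Fgfbp3 averaged 6.60 and 20.6 CPM, whereas the points of Fgfr1, Fgfrl1 and Fgf11 overlap between the groups.

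The sequences around the transcription starts of the carriers are shown because these are the members that were lower together. They come from RefSeq on GRCm38.p6 and cover 250 bases before to 50 bases after the annotated start, read 5′ to 3′ on the gene's own strand (chr5:43981750-43982049 for Fgfbp1 and chr19:36919550-36919849 for Fgfbp3, both on the minus strand). Capitals mark matches to TATAAA and CCAAT on either strand, and GGGCGG and TGANTCA were searched in the same way on both strands.
Fgfbp1: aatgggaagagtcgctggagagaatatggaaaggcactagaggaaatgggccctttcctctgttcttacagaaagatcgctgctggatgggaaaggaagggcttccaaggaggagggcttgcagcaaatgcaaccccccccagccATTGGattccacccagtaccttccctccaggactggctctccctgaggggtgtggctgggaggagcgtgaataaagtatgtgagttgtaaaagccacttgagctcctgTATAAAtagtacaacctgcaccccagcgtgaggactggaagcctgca
Fgfbp3: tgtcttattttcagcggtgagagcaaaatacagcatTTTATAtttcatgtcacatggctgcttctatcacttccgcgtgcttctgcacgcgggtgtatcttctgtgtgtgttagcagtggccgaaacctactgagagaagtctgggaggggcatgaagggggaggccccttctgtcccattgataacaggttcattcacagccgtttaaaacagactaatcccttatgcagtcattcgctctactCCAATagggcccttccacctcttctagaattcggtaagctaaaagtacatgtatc

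Both windows held 1 match to TATAAA and 1 to CCAAT, and neither held GGGCGG or TGANTCA. Of all 32851 windows of this length, 13.62% held TATAAA, 37.41% CCAAT, 35.66% GGGCGG and 7.81% TGANTCA. The TATAAA of Fgfbp1 lay 4 to 9 bases after the RefSeq start on the gene's strand. The start annotated by GENCODE is 20 bases downstream of the RefSeq start. That of Fgfbp3 was on the other strand, from position -214 to -209 relative to the start. Fgfbp1 had 4 and Fgfbp3 had 9 CpG dinucleotides, beside a median of 7 over all windows. The windows of Fgfr2 and Fgf11, with 4 and 5 CpG and no GGGCGG, were close to that of Fgfbp1 and held fewer CpG than that of Fgfbp3. Those of Fgf2 (24 CpG), Fgfr3 (26 and 30), Fgfr4 (20) and Fgfrl1 (37) held more CpG and at least 1 GGGCGG each, and the 4 windows of Fgf13 ran from 3 to 40 CpG. RefSeq windows were found for 9 of the 10 members, and Fgfr1 is named only. These matches are letters in a window and are not shown to be sites that a factor uses.

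Fgfr1 (chromosome 8, 25513654 to 25575718, plus strand) encodes the receptor usually held to be the main FGF receptor of endothelium. It had 33.9, 32.3 and 27.9 CPM in AngII replicates 1 to 3 and 32.6, 29.2 and 30.3 CPM in saline replicates 1 to 3. The groups overlapped, and the highest and the lowest values were both from AngII samples. The means were 31.4 ± 3.13 CPM with AngII and 30.7 ± 1.73 CPM with saline (SD, n = 3 each), with a log2 fold change of 0.03 ± 0.07 (SE). Its sign turned, with -0.034 without AngII replicate 1 and -0.0083 without saline replicate 2, so no direction can be given.

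Fgfr3 (chromosome 5, 33721674 to 33737068, plus strand), a receptor best known for restraining bone growth, had 6.89, 7.38 and 6.68 CPM in AngII replicates 1 to 3 and 5.93, 5.94 and 6.59 CPM in saline replicates 1 to 3. Every AngII sample was above every saline sample, but AngII replicate 3 and saline replicate 3 were close. Across all tested genes 62.7% had groups that did not overlap, 31.3% with AngII above and 31.4% with AngII below. The means were 6.98 ± 0.360 CPM with AngII and 6.15 ± 0.377 CPM with saline (SD, n = 3 each; log2 fold change 0.18 ± 0.10, SE), and Fgfr3 did not pass the threshold.

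Fgfrl1 (chromosome 5, 108692382 to 108706924, plus strand) encodes a receptor-like protein that binds FGFs and lacks the kinase domain. It had 6.89, 6.27 and 6.88 CPM in AngII replicates 1 to 3 and 6.49, 7.44 and 7.59 CPM in saline replicates 1 to 3, and the groups overlapped. Before scaling to library size its counts added up to 477 in both groups. Scaled, the means were 6.68 ± 0.354 CPM with AngII and 7.17 ± 0.592 CPM with saline (SD, n = 3 each). The log2 fold change was -0.10 ± 0.10 (SE), which did not pass the threshold.

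Fgfr2 and Fgfr4, the receptors more often found in epithelia and in liver and muscle, were close to undetected. Fgfr2 had 4, 2 and 5 counts in AngII replicates 1 to 3 and 0, 5 and 2 counts in saline replicates 1 to 3. Fgfr4 had 2, 1 and 1 counts in AngII samples and 3, 2 and 2 counts in saline samples. At 3 counts, taken here as the floor of detection in each library, the level is 0.120 to 0.141 CPM, so no fold change is given for either. The annotated Fgfr2 gene of GENCODE M21 includes a transcript that shares exons with Ctbp2, so its few reads are uncertain too.

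A level can be compared between genes only per length, here as TMM-scaled CPM per kb of the union of a gene's exons in GENCODE M21. Among the 4 kinase receptors, Fgfr1 held 77.4%, 75.7% and 74.5% of the summed level in AngII replicates 1 to 3 and 79.2%, 77.1% and 76.3% in saline replicates 1 to 3. Fgfr3 held 21.7%, 23.8% and 24.7% in AngII samples and 19.9%, 21.6% and 22.9% in saline samples. The shares overlapped between the groups for both receptors. Fgfr2 and Fgfr4 each held under 1% in every sample. With the longest transcript in place of the union, Fgfr1 averaged 78.5% with AngII and 80.2% with saline. The table gives counts per gene, so the splice forms of the receptors that differ in which FGFs they bind cannot be told apart.

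The order of the members per length differed between the groups because of the carriers. In AngII samples Fgfbp3 (3.73 ± 0.488 CPM per kb, SD, n = 3) and Fgfr1 (3.18 ± 0.317) overlapped at the top, followed by Fgfrl1 (2.40 ± 0.127), then Fgfbp1 (1.10 ± 0.248) and Fgfr3 (0.976 ± 0.0503), which overlapped, and Fgf11 (0.683 ± 0.129). In saline samples the order was Fgfbp3 (11.6 ± 0.235 CPM per kb), Fgfbp1 (11.0 ± 0.0542), Fgfr1 (3.11 ± 0.176), Fgfrl1 (2.58 ± 0.213), Fgfr3 (0.860 ± 0.0526) and Fgf11 (0.553 ± 0.112), and no neighbours among these 6 overlapped. Both carriers thus stood above every receptor per length in saline samples, while in AngII samples Fgfbp1 overlapped with Fgfr3. Fgf2, Fgfr2, Fgfr4 and Fgf13 were all at or below 0.03 CPM per kb on average, and neighbours in their order overlapped in both groups. With the longest transcript as the length, 7 of the 10 members changed place in AngII samples and 0 in saline samples. The saline samples of Fgfbp3 (mean 11.6 CPM per kb) and Fgfbp1 (11.4) overlapped at that length. In AngII samples Fgfr1 moved above Fgfbp3, and Fgfr3 (mean 1.65 CPM per kb) above Fgfbp1 (1.13).

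**Figure D2:**
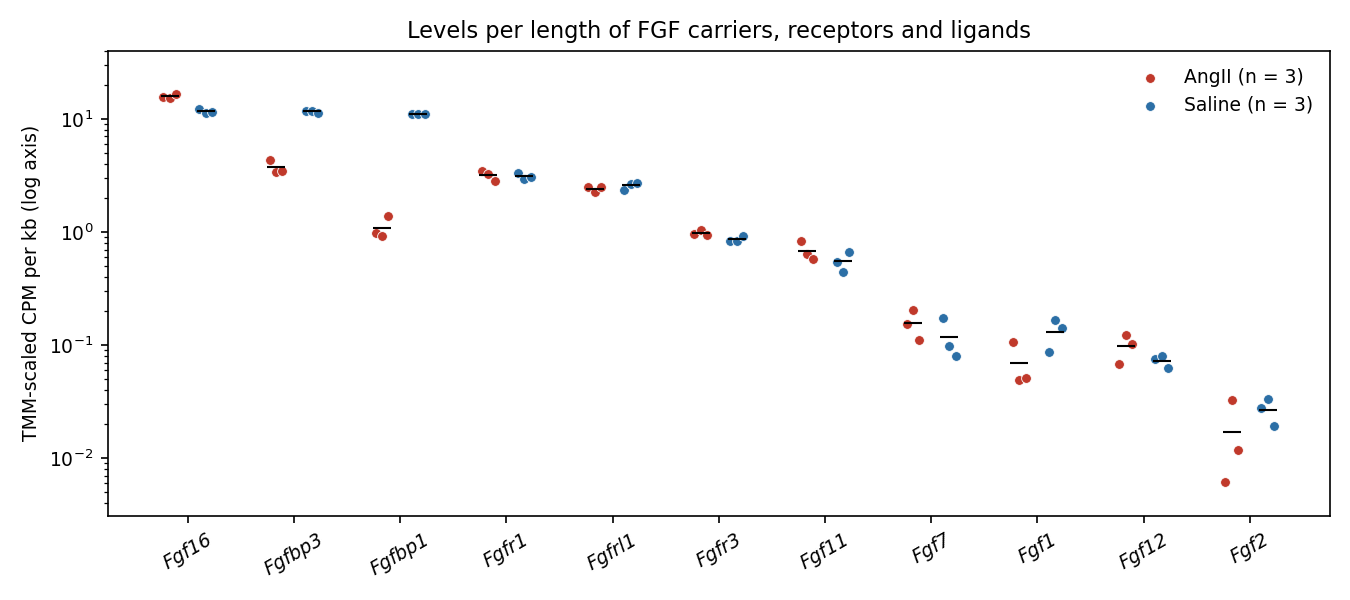
TMM-scaled CPM per kb of exon length on a log axis, with a point for each of the 3 AngII and 3 saline samples and a dash for the mean. Fgfbp3 (3.73 CPM per kb with AngII and 11.6 with saline) and Fgfbp1 (1.10 and 11.0) show a gap between the groups, Fgfr1 (3.18 and 3.11) does not, and Fgf2 is near the detection floor in both.

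Of the ligands, Fgf2, a mitogen of endothelial cells that leaves the cell without a signal peptide, was near the floor. It had 1, 5 and 2 counts in AngII replicates 1 to 3 and 4, 5 and 3 counts in saline replicates 1 to 3, and the groups overlapped. Exons of Fgf2 (chromosome 3, 37348346 to 37410108, plus strand) and of Nudt6 on the other strand overlap, and whether the counting used strand is not stated in any source used here, so reads of the pair cannot be told apart. Nudt6 itself averaged 1.33 ± 0.176 CPM with AngII and 0.848 ± 0.285 CPM with saline (SD, n = 3 each; edgeR adjusted p = 0.042), a call lost in DESeq2 and without any 1 of AngII replicates 2 and 3 and saline replicates 1 and 3, with adjusted p of 0.0766 to 0.2.

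Fgf11 and Fgf13 belong to the FGF homologous factors, which stay inside the cell, bind voltage-gated sodium channels and do not act as classic receptor ligands. Fgf11 (chromosome 11, 69796068 to 69801857, minus strand) had 2.52, 1.96 and 1.76 CPM in AngII replicates 1 to 3 and 1.65, 1.36 and 2.04 CPM in saline replicates 1 to 3. The groups overlapped, and its log2 fold change of 0.30 ± 0.20 (SE) did not pass the threshold. Fgf13 had 1 count in each AngII sample and 0, 1 and 0 counts in saline replicates 1 to 3, which is below the floor. Of 9 listed partners, which are sodium channels and the scaffold gene Mapk8ip2, 5 were tested, 1 rose and 2 fell, and these 3 of 5 were close to the 57.6% of all tested genes called. Scn3a rose to 56.6 ± 3.05 CPM with AngII, against 25.9 ± 0.681 CPM with saline (SD, n = 3 each; 2.18-fold, edgeR adjusted p = 1.7e-12), while Scn2a was 1.56-fold lower and Scn4a 2.07-fold lower.

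Because Fgf2 was near the floor, the remaining FGF genes were read from a list of 19. Of these, 13 were in the table, 4 passed the count filter, 1 rose and 1 fell, beside 29.0% and 28.6% of all tested genes. Fgf16, a secreted ligand of the Fgf9 subfamily, had the highest level per length of the FGF ligands measured, 15.8 ± 0.666 CPM per kb with AngII and 11.7 ± 0.542 CPM per kb with saline (SD, n = 3 each). In CPM it had 25.5, 25.4 and 27.3 in AngII replicates 1 to 3 and 20.2, 18.6 and 18.8 in saline replicates 1 to 3, a 1.36-fold rise (edgeR adjusted p = 4.5e-06). Fgf1, another ligand without a signal peptide, was lower at 0.378 ± 0.182 CPM with AngII and 0.719 ± 0.225 CPM with saline (edgeR adjusted p = 0.048), but its groups overlapped and the call was lost in DESeq2 (0.122), with the replicate number as a block (0.0639) and without AngII replicate 2 (0.16), AngII replicate 3 (0.148), saline replicate 2 (0.184) or saline replicate 3 (0.127). Fgf7 and Fgf12 did not pass, and the other 9 were below the filter with at most 6 counts in a sample. Of the proteins that help FGF1 and FGF2 leave the cell, 4 of 5 listed genes were tested and all 4 fell, beside 28.6% of all tested genes. S100a13 fell by the most at 1.66-fold lower (33.7 ± 1.91 CPM with AngII and 55.9 ± 0.447 CPM with saline; SD, n = 3 each), followed by Tec at 1.31-fold and Anxa2 at 1.18-fold.

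The tested genes of the heparan sulfate side of the pathway moved in both directions by less than 2-fold. Of 14 proteoglycan core proteins listed, 10 were tested, 3 rose and 6 fell (9 of 10 called, beside 57.6% of all tested genes), and the median log2 fold change was -0.18, beside 0.00 for all tested genes (9.0e-05). In the fits that left out a sample, 7 to 8 of these genes were called. The syndecans were divided: Sdc4 fell to 41.2 ± 1.01 CPM with AngII, against 62.7 ± 1.42 CPM with saline (1.52-fold lower, edgeR adjusted p = 4.5e-10), and Sdc1 was 1.31-fold lower, while Sdc3 was 1.29-fold and Sdc2 1.12-fold higher. Agrn, which encodes agrin, fell by 0.40 on the log2 scale, and Tgfbr3, betaglycan, was 1.12-fold higher, a call lost without AngII replicate 2 (adjusted p = 0.0593) or saline replicate 3 (0.06). Of 31 enzymes that build or edit the chain, 19 were tested, 5 rose and 7 fell, with a median of -0.04, and the 63.2% called was close to the 57.6% of all tested genes. Hs3st6, a sulfotransferase gene below the filter, had 1, 1 and 0 counts in AngII replicates 1 to 3 and 6, 6 and 9 counts in saline replicates 1 to 3. Sulf2, an extracellular enzyme that removes 6-O-sulfates which FGF signalling uses, fell to 145 ± 2.33 CPM with AngII, against 257 ± 0.909 CPM with saline (1.78-fold lower, edgeR adjusted p = 1.3e-13). Ndst2 was 1.27-fold and Extl3 1.18-fold lower, and Xylt1 (1.37-fold), Ext1 (1.31-fold) and B3galt6 (1.45-fold) were higher. Genes that act in starting and extending the chain went both ways, since Ext2 was 1.13-fold lower.

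The receptor adaptors and the RAS to ERK cascade showed small differences in both directions, and all 26 listed genes were tested. Of them 6 rose and 7 fell, so 13 of 26 were called beside 57.6% of all tested genes, with a median log2 fold change of -0.01. Frs2, the adaptor of the FGF receptors, had a log2 fold change of 0.00 ± 0.06 (SE; 36.0 ± 1.17 CPM with AngII and 36.0 ± 2.68 CPM with saline). Gab1, a docking protein, was 1.77-fold, Hras 1.64-fold and Grb2 1.12-fold lower, while Sos2 (1.34-fold), Braf (1.24-fold) and Nras (1.23-fold) were higher. Of the partners that bind FGF receptors at the membrane, 3 of 9 were tested, and 1 rose and 1 fell, beside 57.6% of all tested genes called. Flrt2, a membrane protein of the FLRT family, rose by 0.26 on the log2 scale, and the cadherin Cdh2 was 1.27-fold lower. Below the filter, Flrt1 had 10, 16 and 11 counts in AngII replicates 1 to 3 and 0, 5 and 0 in saline replicates 1 to 3. Flrt3 had 11, 14 and 11 counts with AngII and 8, 5 and 2 with saline. Lctl went the other way, with 0, 0 and 2 counts with AngII and 3 in each saline sample. The klotho genes Kl and Klb, which endocrine FGFs need, had at most 2 counts in any sample.

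Most of the listed inhibitors and target genes that ERK induces were higher with AngII, unlike the carriers. Of the 11 tested feedback inhibitors, 9 rose and 1 fell, against 29.0% and 28.6% of all tested genes, and the median log2 fold change was 0.24. Spry4, a Sprouty inhibitor of receptor kinase signalling, had 12.3, 12.3 and 11.9 CPM in AngII replicates 1 to 3 and 5.69, 4.90 and 4.25 CPM in saline replicates 1 to 3 (2.46-fold higher; log2 fold change 1.30 ± 0.10, SE; edgeR adjusted p = 2.5e-09). Dusp6, the phosphatase that inactivates ERK, averaged 53.4 ± 2.99 CPM with AngII and 28.2 ± 1.35 CPM with saline (SD, n = 3 each; 1.89-fold higher; edgeR adjusted p = 5.0e-11). For both genes the groups lay far apart. Spred2 was 1.33-fold and Spry1 1.16-fold higher. Spry2 was 1.18-fold higher with groups that overlapped, and its call (edgeR adjusted p = 0.043) was lost with library totals alone (0.0549), in DESeq2 (0.119) and without any 1 of AngII replicates 2 and 3 and saline replicates 1 and 3 (0.0603 to 0.218). Il17rd, a membrane inhibitor of FGF receptor signalling, fell by 0.40 on the log2 scale.

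Of the 13 tested ERK-dependent transcripts, 11 rose and 2 fell, against 29.0% and 28.6% of all tested genes. The median log2 fold change was 0.28, beside 0.00 for all tested genes. Like the other lists, this one was chosen with earlier results of these data known. The ETS factors that FGF signalling induces in many tissues were among the genes that rose. Etv5 averaged 12.7 ± 0.324 CPM with AngII and 6.50 ± 0.296 CPM with saline (SD, n = 3 each), a 1.95-fold higher level (log2 fold change 0.96 ± 0.08, SE; edgeR adjusted p = 1.3e-08). Etv4 averaged 33.6 ± 3.52 CPM with AngII and 26.6 ± 0.627 CPM with saline (SD, n = 3 each; 1.26-fold higher; edgeR adjusted p = 2.4e-04). Egr1 was 3.03-fold, Fosl1 1.58-fold and Myc 1.57-fold higher, while Fos was 1.74-fold and Phlda1 1.42-fold lower. ERK answers many receptors besides those of FGFs, and phosphorylated ERK was not measured.

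**Figure D3:**
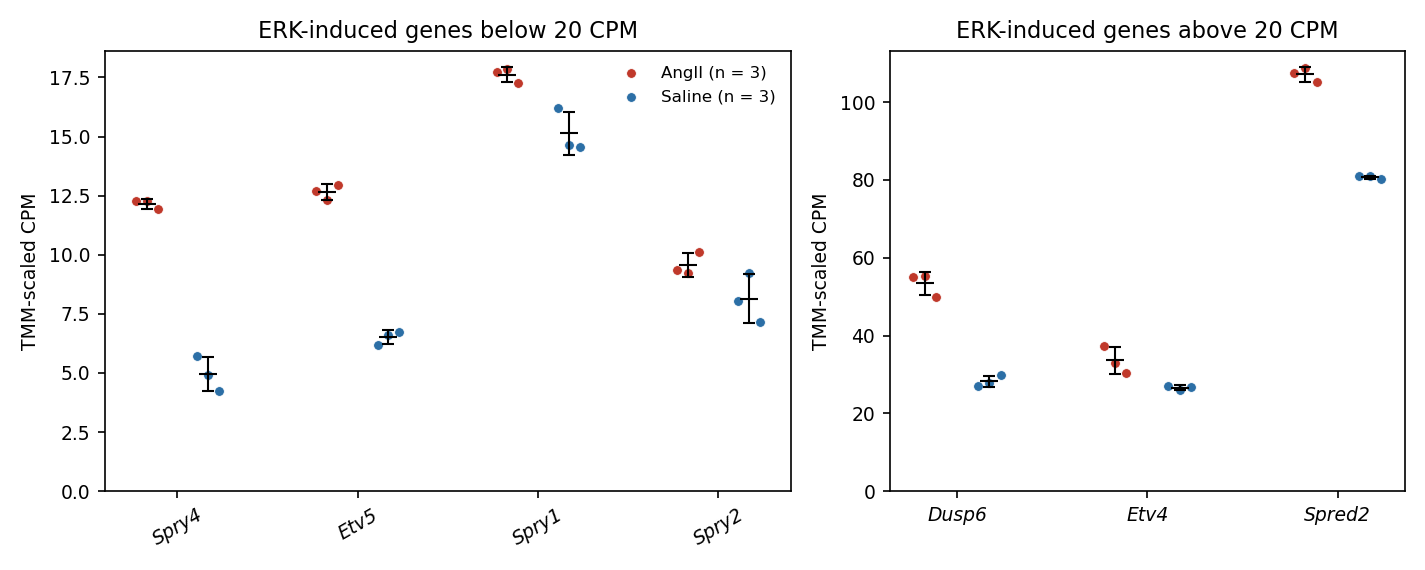
TMM-scaled CPM of some of the named ERK-induced genes, with a point for each of the 3 AngII and 3 saline samples and a bar for the mean ± SD. Named genes not shown are Egr1, Fosl1 and Myc, which rose, and Fos, Phlda1 and Il17rd, which fell. Spry4 (12.2 CPM with AngII and 4.95 CPM with saline), Etv5 (12.7 and 6.50 CPM) and Dusp6 (53.4 and 28.2 CPM) show a wide gap between the groups, and the points of Spry2 overlap.

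**Figure D4:**
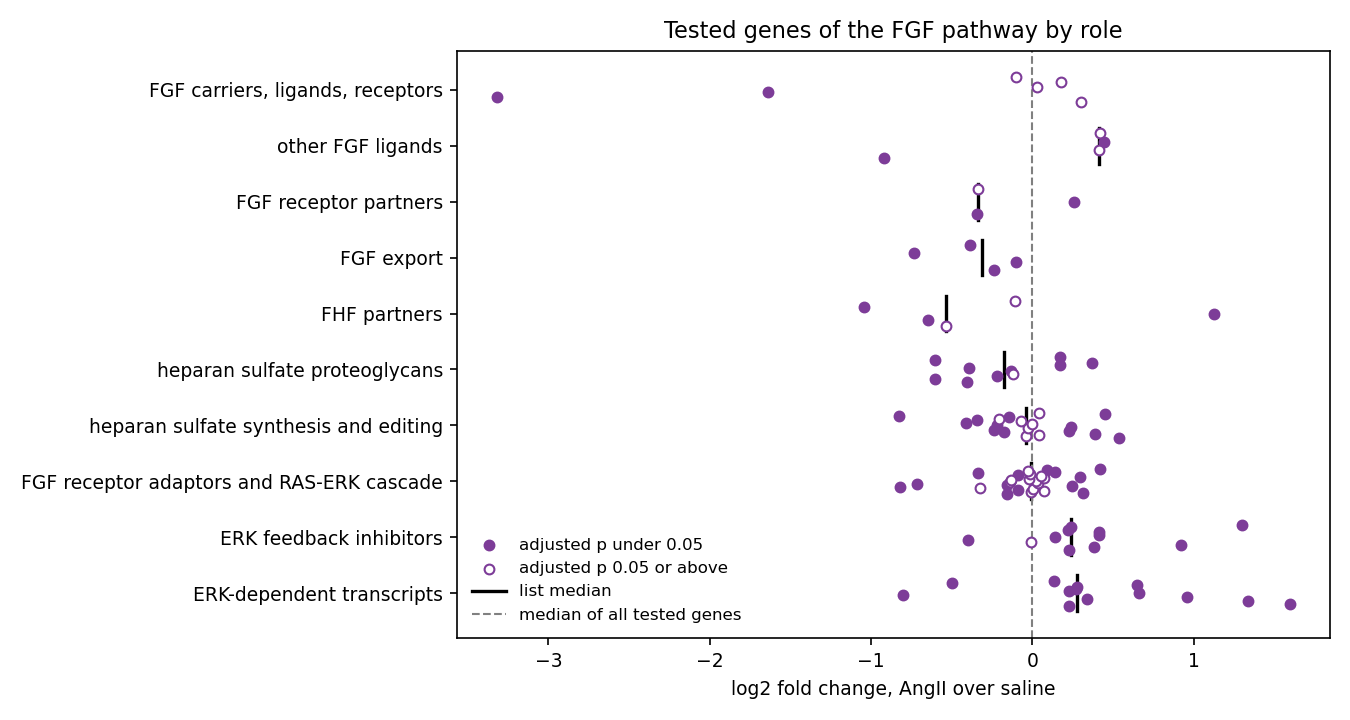
Log2 fold change, AngII over saline, of every tested gene in each role of the FGF pathway, with filled points for an adjusted p under 0.05, a bar for the list median and a dashed line for the median of all tested genes. Fgfbp1 (-3.32) and Fgfbp3 (-1.64) are the points farthest to the left, and most ERK feedback inhibitors and ERK-dependent transcripts are to the right of the dashed line.

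Fgfbp1 lies between Cd38 and Prom1, its nearest neighbours among the protein-coding genes analysed here. Prom1, which encodes the membrane protein prominin 1 and whose 3′ end lies 11841 bp away on the same strand, fell to 182 ± 10.4 CPM with AngII, against 295 ± 7.31 CPM with saline (SD, n = 3 each; 1.62-fold lower, edgeR adjusted p = 2.2e-11). Tapt1, at 193375 bp, was 1.31-fold lower. Cd38, an NAD-degrading enzyme at 66483 bp on the other side, averaged 110 ± 8.54 CPM with AngII and 109 ± 1.90 CPM with saline and did not pass (edgeR adjusted p = 0.84). Gm7879, also on that side, was not analysed here.

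Among the 10082 other genes with a mean of at least 5 CPM, the profile over the 6 samples most like that of Fgfbp1 was that of Ces2f, with a distance of 0.650 between the centred log2 profiles. Elfn2 (1.14), Ces2e (1.35), Nectin4 (1.37) and Celf5 (1.70) followed. The measure rests largely on the size of the difference between the groups, and these 5 genes had log2 fold changes of -3.86 to -2.15.

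Some markers of cells other than endothelium were also lower with AngII, and these are given beside the carriers because Fgfbp1 is known from epithelia. The marker lists are short, and 29.0% of all tested genes were called higher and 28.6% lower, so their counts of calls say little. Of 14 epithelial and mesothelial markers, 13 were in the table, and their summed level was 2.94 to 3.70 CPM in AngII samples and 8.30 to 9.62 CPM in saline samples. Cdh1, Krt5, Krt14, Upk3b and Wt1 had at most 3 counts in any sample and Krt8 at most 6, and Epcam was not analysed here. The keratin gene Krt18 had 21, 13 and 26 counts in AngII replicates 1 to 3 and 23, 23 and 35 counts in saline replicates 1 to 3, and did not pass the test. Krt19, below the filter, had 7, 2 and 5 counts with AngII and 7, 16 and 15 counts with saline. Also below the filter, Lrrn4 had 7, 4 and 5 counts with AngII and 6, 8 and 5 counts with saline. Muc16 had 10, 4 and 3 counts with AngII and 4, 4 and 3 counts with saline, so neither was clearly lower. Of the 4 tested, 3 fell: Krt7 had 0.391 ± 0.0438 CPM with AngII and 3.12 ± 0.586 CPM with saline (SD, n = 3 each), Upk1b had 0 to 1 counts with AngII and 14 to 19 counts with saline, and Msln was 2.00-fold lower. Of 10 smooth muscle and pericyte markers 5 were tested, Notch3 (3.91-fold), Des and Myh11 fell and Smtn rose by 0.32 on the log2 scale. Des had 4, 2 and 5 counts with AngII and 33, 41 and 31 counts with saline, and Myh11 had 6, 4 and 3 counts with AngII and 29, 18 and 16 counts with saline, so the AngII counts were near the floor and no fold is given. The summed level of the list was 115 to 120 CPM in AngII samples and 103 to 106 CPM in saline samples, most of it from Smtn. Without Smtn the other 9 genes summed to 7.60 to 9.25 CPM in AngII samples and 16.2 to 17.8 CPM in saline samples. Of these 9, Notch3 had the largest gap, averaging 2.29 CPM with AngII and 8.97 CPM with saline. Pdgfrb averaged 5.64 CPM with AngII and 5.01 CPM with saline and did not pass the test. All 3 tested fibroblast markers rose (Col3a1 2.40-fold, Pdgfra 1.58-fold, Pi16 1.43-fold), with a summed level of 18.7 to 21.5 CPM in AngII samples and 10.8 to 12.0 CPM in saline samples. Of 10 endothelial markers 4 rose and 4 fell, all 3 tested lymphatic endothelial markers rose (Lyve1 1.93-fold) with Prox1 at 0 to 3 counts, and 1 of 2 tested leukocyte markers rose (Lyz2, a call lost in DESeq2 at 0.102 and without AngII replicate 2, saline replicate 1 or saline replicate 2 at 0.0531 to 0.0824). The part of such cells in the difference of the carriers was not tested.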

How the data were processed

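Per the labels' protocols, aortic endothelial cells of mice infused with AngII or saline (3 samples each) gave messenger RNA, isolated on beads, for strand-marked (dUTP) libraries. The authors deposited 1 table of estimated counts by gene symbol, not scaled to library size, in which 83.03% of values were whole numbers. Per the submitters' processing notes, HISAT2 and the build mm10 were used, without versions. Quantifier, annotation, strand setting and filters: not given in the sources used here. All 6 columns matched a sample by title, and 0 were left unmapped.

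Counts were rounded and compared in edgeR 4.0.16 (R 4.3.3) with TMM scaling, filterByExpr defaults (minimum count 10, minimum total 15), the quasi-likelihood F-test and Benjamini-Hochberg adjustment over 12277 genes, with a threshold of 0.05. Standard errors are the log2 fold change divided by the square root of F. Gene models came from GENCODE M21 and promoters from RefSeq (GRCm38.p6). Replicate pairs differed by more than sampling noise (chi-square per degree of freedom 2.33 to 5.64). Alternatives were median-of-ratios factors, library totals alone, 2 other filters, DESeq2 1.42.0, limma-voom (limma 3.58.1), a block for replicate number, and leaving out each sample. The fit was checked on simulated data.

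The members and gene lists were chosen with earlier results of these data known. From each list up to 3 genes that rose and up to 3 that fell, with the smallest p-values, were named, plus Spry1, Spry2, Spry4, Dusp6, Etv4, Etv5, Nudt6, the 2 protein-coding genes on each side of Fgfbp1 and the 5 genes with the most similar profile. The rest named were chosen after their values were seen. Each mean, SD and test rests on 3 samples per group, which limits its precision. The result of 1 gene of the marker lists is not reported here.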

Additional observations from a re-analysis of the deposited data

How the results depend on the processing

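Over the 13 alternatives the log2 fold change was -3.53 to -3.21 for Fgfbp1 and -1.75 to -1.58 for Fgfbp3, a description only, since the members were picked with this comparison known. The sign of Fgfr1 turned in 2 of the fits that left out a sample (range -0.034 to 0.108), and that of Cd38, the uncalled neighbour of Fgfbp1, with library totals alone (-0.00050) and without AngII replicate 1 (range -0.051 to 0.062 with a sample left out). Genes called numbered 3014 to 3743 higher and 3010 to 3704 lower over the alternatives. The count of called FGF ligands went to 1 with at least 5 CPM in 3 samples, in DESeq2 and with the replicate block (1 to 2 with a sample left out), that of Fgf11 and Fgf13 partners to 1 with at least 5 CPM, and that of receptor partners to 4 with no filter (2 to 4 with a sample left out). The stricter filter tests fewer genes and the looser one more. In DESeq2 and with the replicate block, the ligand that lost its call was Fgf1. For the rest the cause was not tested. The order of levels per length changed place for 7 members in AngII samples with the longest transcript as length.

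Samples that share a replicate number had weak positive correlations of 0.083, 0.052 and 0.0076 for numbers 1 to 3. Samples with different numbers had -0.130 to 0.080. AngII replicates 1 and 2 correlated best with the saline sample of their own number, and AngII replicate 3 with saline replicate 2. The labels state no pairing, and these values do not settle it, so the main fit had no block. With the replicate block 3627 genes were called higher and 3577 lower, against 3555 and 3517 in the main fit. Among the named genes Fgf1 lost its call. At 21.2 to 25.0 counts per CPM, members near 3 counts (Fgf2, Fgf13, Fgfr2, Fgfr4) could not be compared.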
